A study of Drosophila melanogaster with 23 samples.

Results

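Wide regions of accessible chromatin that every library shared were examined in Drosophila melanogaster blastoderm embryos of stage 5. On chromosomes X, 2L, 2R, 3L, 3R and 4, peaks of 22 lists with 1 bp or more in common were joined into merged regions, and the members were chosen by width, at least 2000 bp, and by holding a peak of each list. This chose 1416 of 25311 merged regions, or 5.59%. They made up 13.1% of the 10843 regions found in all 22 lists and, with 4.85 Mb, 25.5% of all merged bases. Since width and presence in every list are measured values from the same peaks, both are given as description only. A member cannot lack a peak altogether in any library, so a difference inside it is one of how much of it lay under peaks and where.

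ATAC-seq inserts sequencing adapters into chromatin with the transposase Tn5, and stretches with many insertions are called as peaks of accessible DNA. In the fly blastoderm, enhancers and promoters of patterning genes are accessible, and several such elements can lie side by side near 1 gene. Neighbouring elements then give peaks that touch in some libraries and stay apart in others.

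The tagged libraries came from nuclei pulled down through UNC84-3xFLAG, a nuclear envelope tag, which marks a nucleus only where the enhancer of its construct is active. D1 used the anterior hb enhancer with a promoter labelled Hs34, D3 eve stripe 1 with DSCP, D2 eve stripe 2 with DSCP, D4 the central D enhancer with Hs43, D5 the central Kr enhancer with Hs43, D6 eve stripe 5 with DSCP and D7 the posterior gt enhancer with Hs43. This is the order used below, with D1, D2 and D3 called anterior, D4 and D5 central, and D6 and D7 posterior. Each domain had 2 libraries, and whole-embryo libraries made without the pull-down came from the D1, D4, D5 and D7 strains, also 2 each. All strains had a wild-type background; embryos were collected for 20 min, aged for 150 min and frozen 190 min after collection began, and each library started from 340 ng of DNA and had 12 PCR cycles. The duplicates are described as independent strains, but both D3 libraries carry 1 strain label.

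The lists held 16830 to 22169 peaks. In 8 of them, replicate 1 of D1, D4, D5 and D7 in tagged nuclei and in whole embryos, no peak name had a summit letter, and in the other 14 it could. Library names came in 3 styles, one of them that of the 8 lists without letters. Another style, with 3 lists, occurred only in D2, D3 and D6. List kind and style therefore fall together with replicate and with domain in part, and style was used as a possible batch. The lists hold no reads, so depth is unknown. More open nuclei in a band and wider opening in each nucleus cannot be told apart.

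The members had a median width of 2780 bp, with quartiles of 2316.5 and 3759.5 bp. In all, 594 were at least 3000 bp wide, 170 at least 5000 bp and 25 at least 10000 bp, and the widest spanned 26404 bp. On 2R, 15.2% of the regions found in all lists were this wide, on 3R 14.2%, on 2L 12.6%, on X 12.1% and on 3L 11.6%, against 5.08%, or 9 regions, on chromosome 4. Members lay close to other accessible regions: the nearest region found in all lists was at a median of 343 bp, and at 1023 bp for narrower ones. A neighbouring member stood next to 36.0% of members and 21.8% of narrower regions. Only 28 regions were as wide but missed at least 1 list; they were found in 9 to 21 lists, 14 of them in 21.

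Just inside the limit stood 2R 5019771–5021770 and 3R 17345920–17347919, each 2000 bp wide, and 3L 19054846–19056846 with 2001 bp. Just outside stood 3R 21020179–21022177 and 2R 11784347–11786345 with 1999 bp each and X 486418–488415 with 1998 bp. All coordinates are on dm3.

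Most of a member was open in every library, and the parts that were not lay both at its edges and inside it. Peaks of all 22 lists covered 62.4% of the bases of the members and 55.9% of those of narrower regions. Bases under peaks of at least 11 lists made up 85.9% of the members, and 2.28% of their bases lay in a peak of 1 list only. The part shared by all 22 lists was 1 unbroken segment in 26.4% of the members and in 88.3% of narrower regions, with a median of 2 segments and at most 23 in a member. Edges outside the outermost shared segments took 23.7% of member bases and gaps between shared segments 13.9%; in narrower regions they took 41.6% and 2.46%. In 6 members no base was shared by all 22 lists.

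The 3R members among the 5 widest were nearly filled in every library, and the 2L and 3L ones less so. In 3R 6408279–6434682, tagged libraries covered 25530 to 26386 of 26404 bp and whole embryos 25511 to 26253 bp, in 1 to 6 peaks. The 10 tagged lists with letters gave 46 to 52 summits there. In 2L 1404499–1423282, tagged libraries covered 15878 to 18592 of 18784 bp, in 1 peak in D7 replicate 1 and in 10 peaks in D6 replicate 1. None of the 5 widest members passed a test between domains, and 2L 1404499–1423282 was also among the 3 most even members.

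How much of a member was covered varied little for most of them. The ratio of the highest to the lowest covered length over the 14 tagged libraries had a median of 1.40 in members and 1.55 in narrower regions. It was above 2 in 259 members, 18.3%, and above 5 in 26 members, 1.84%; in narrower regions these shares were 26.4% and 0.806%. The SD of log2 covered length over the tagged libraries had a median of 0.14 in members of 2000 to under 3000 bp, 0.11 from 3000 to under 5000 bp and 0.10 from 5000 bp on. The most even members were 2R 17046644–17050606, X 7201351–7204713 and 2L 1404499–1423282, with SDs of 0.04, 0.04 and 0.05.

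The share of a member under peaks differed between domains and also between duplicates. The median share was 90.8% and 84.5% in D1, 80.5% and 79.1% in D3, 87.6% and 80.3% in D2, 93.1% and 88.8% in D4, 92.2% and 89.6% in D5, 76.6% and 81.7% in D6 and 89.2% and 86.9% in D7, with replicate 1 first. Whole embryos had 83.4% to 91.9%. D4 and D5 were highest and D3 and D6 lowest on average, and the duplicates of D1, D2 and D6 lay several points apart. D3 and D6 had no list without letters, so this order mixes domain with list kind. Within the naming style that holds every domain, D4 and D5 were also highest, at 88.8% and 89.6%. D3 and D6 were lowest within it, at 80.5% and 76.6%. D6 replicate 1, with the fewest peaks of all lists, had the lowest share and left 169 members covered to less than 50%, against 18 in D1 replicate 1. Narrower regions moved with the library too: their median share was 73.0% in D6 replicate 1 and 90.8% in D4 replicate 1. Covered lengths were therefore centred on each library's median over all 10843 regions before domains were compared.

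Peaks joined up most often in central nuclei. A single peak in a member was seen in 46.9% and 41.5% of members in D4 and in 40.0% and 45.8% in D5. In D1 the share was 34.0% and 36.7%, in D3 27.0% and 29.3%, in D2 29.9% and 25.8%, in D6 28.7% and 28.0% and in D7 45.1% and 36.4%. The 4 central libraries lay above all other tagged ones except D7 replicate 1, and whole embryos spread from 29.1% to 47.7%. Over all 22 lists, 97 members were 1 peak throughout.

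**Figure D1:**
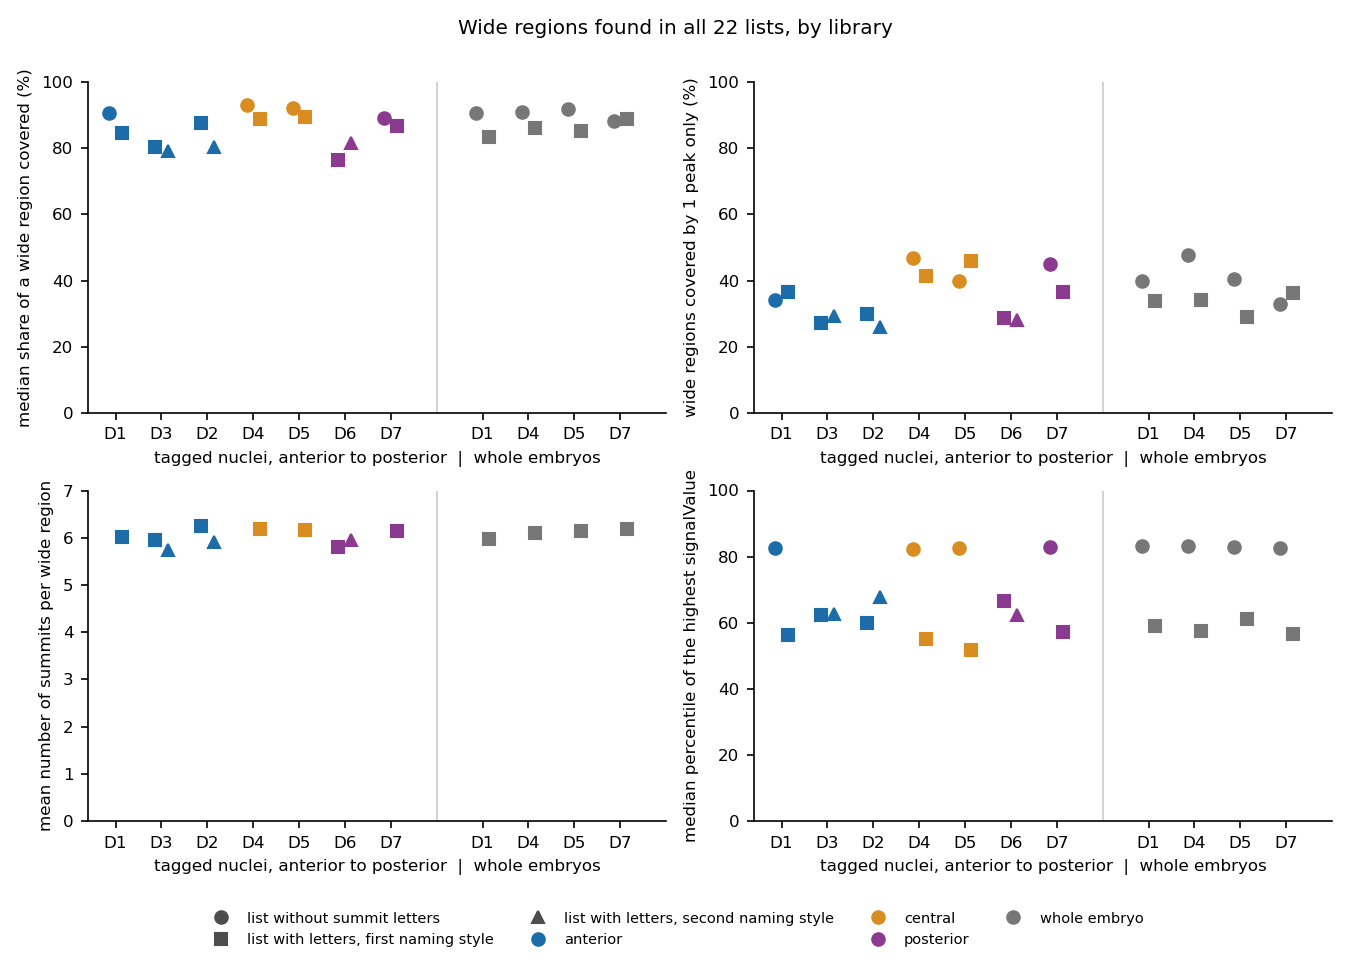
The 1416 wide regions in each of 22 libraries: median share of a region under peaks (%), regions with 1 peak only (%), mean number of summits (lists with letters only) and median percentile of the highest signalValue among 10843 regions. Each point is 1 library, tagged domains run from anterior (D1) to posterior (D7) with whole embryos at the right, colour is position and shape is list kind. Among tagged domains, covered share is highest on average in D4 and D5. Summits hardly move, and the signal percentile splits by list kind at about 82.2 to 83.2 against 51.7 to 67.8.

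The number of summits hardly differed between domains. It was read from the letter that a list gives to a peak, taken as the place of the summit kept, so it is an estimate, and it could be had in 10 tagged lists and 4 whole-embryo lists. The mean per member was 6.01 in D1, 5.96 and 5.75 in D3, 6.25 and 5.91 in D2, 6.19 in D4, 6.16 in D5, 5.81 and 5.94 in D6 and 6.13 in D7. Whole embryos had 5.98 to 6.19, and the median was 5 in every list. D1, D4, D5 and D7 have 1 such list each, so the domains cannot all be set against a spread between duplicates and no test was made.

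Summit density moved little. Per covered kb, members held 2.10 to 2.24 summits in tagged lists, and narrower regions 2.27 to 2.49. Within single members the count moved more: over the 10 tagged lists it was the same in 49 members and within 1 in 329, or 23.2%, with a median range of 2. The widest range, 3 to 29, was in 2L 6973214–6985157. No member had a single summit in all 10 lists, and 73 had one in at least 1 of them.

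The rank of the highest deposited signalValue, the authors' fold enrichment of a peak, depended on the kind of list. A lettered list is read here as keeping 1 summit per peak, so its value may not be the highest of the peak. In 3R 9726978–9729078, D1 nuclei stood at percentile 98.5 without letters and 16.2 with them, and D4 nuclei at 96.6 and 98.2. How far the summit kept moved the ranks was not tested. In the 8 lists without letters the median member stood at percentile 82.2 to 83.2 of the 10843 regions, and 34.5% to 36.2% of members were in the top 10%. In the 14 lists with letters it stood at 51.7 to 67.8, with 17.2% to 23.0% in the top 10%. Within the lists without letters the tagged domains D1, D4, D5 and D7 gave 82.7, 82.2, 82.6 and 83.0 and their whole embryos 83.2, 83.2, 82.8 and 82.6, a span smaller than the gap between the kinds of list.

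By that rank, 1 member differed between the 7 domains (limma moderated F-test on normal scores, Benjamini-Hochberg adjusted p = 0.00695), while 0.0646% of all regions tested were called. At an unadjusted p below 0.05 there were 61 members. The called member, 2R 14243551–14245958, stood at percentiles 94.8 and 97.4 in D1, 1.30 and 11.7 in D3, 94.9 and 96.7 in D2, 94.5 and 98.1 in D4, 92.3 and 97.4 in D5, 7.87 and 6.91 in D6 and 93.4 and 97.6 in D7. D3 and D6 were low in both libraries and the other domains high, and so were whole embryos at 91.5 to 97.1 except D4 replicate 2 at 9.13. Its covered length gave an adjusted p of 0.306 between domains: tagged libraries covered 2248 to 2395 of 2408 bp, in both D3 and D6 2308 to 2395 bp. The low tagged lists gave it 5 or 6 summits and the high ones with letters 4 or 5, and the part of the summit kept in this result was not tested. With the naming style as a term 12 members were called, 0.277% of all regions passing, and with lettered lists only 133 members, 9.39%, beside 3.78% of all regions. The use of lettered lists alone was chosen after the data were seen. It leaves 1 list each for D1, D4, D5 and D7, so the spread comes from the duplicates of D2, D3 and D6 alone. Its 133 calls are therefore description only, and no difference between members and other regions is drawn from them. The main test used all 14 tagged lists. When 1 library was left out the count was 1 to 17, highest without D5 replicate 1.

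Covered length differed between the 7 domains in 17 members, or 1.20% (limma moderated F-test, adjusted p at most 0.05), and 1.47% of all regions tested were called. Another 142 called regions were narrower. At an unadjusted p below 0.05 there were 258 members. Of the 17, 8 had their highest mean in D7, 4 in D1, 2 in D3, 2 in D6 and 1 in D2. The lowest mean was in D3 for 6, in D4 for 3, in D5 for 3, in D1 for 2 and in D2, D6 and D7 for 1 each. With the naming style as a term 8 were called, and leaving out either D4 library left 10 and leaving out D2 replicate 2 left 11.

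Anterior nuclei differed from the other domains in 36 members, 2.54%, beside 3.65% of all regions tested. Of these, 15 were covered over a longer stretch in anterior nuclei, where 2.25% of all regions were called, and 21 over a shorter one, where 1.40% were. Without centring the split was 9 higher and 46 lower, and as percent of the region 21 higher and 20 lower. The difference was at least 1 on the log2 scale in 8 of the 36. The anterior and other libraries did not overlap in centred length in 7 members that were higher, beside 0.876% of all regions tested, and in 9 that were lower, beside 0.535%; in either direction the share of all regions was 1.41%. The median difference was 0.02 on the log2 scale in members and in all regions alike. All 36 kept their sign within the 4 tagged libraries of the style without letters and within the 7 of the next style. These libraries also made the calls, so this is no independent check. In the style without letters the anterior side was D1 replicate 1 alone. In whole embryos the median lay between that of anterior and that of the other libraries in 28 of the 36. It was nearer that of the other libraries in 22 and nearer the anterior one in 14. The 36 were picked for a difference between these groups, so these counts are description only. Without D2 replicate 2 or D3 replicate 2 the count was 21, and without D4 replicate 2 it was 23.

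The member that differed most was 2L 12621168–12623934, 2767 bp wide. Peaks covered 362 and 425 bp of it in D1, 337 and 348 bp in D3 and 284 and 254 bp in D2. They covered 2371 and 2309 bp in D4, 2200 and 2078 bp in D5, 1572 and 2083 bp in D6 and 2697 and 2524 bp in D7, and 1438 to 2283 bp in whole embryos. All 6 anterior libraries lay below all 8 others with a wide gap. The difference was −2.68 on the log2 scale (SE 0.07, adjusted p = 1.10e-07), −2.76 within the lists without letters and −2.59 within the next naming style. Anterior nuclei had a single short peak, with 1 summit in each lettered list. The lettered lists of the other domains gave 4 or 5 summits, and 1147 bp were under peaks of all 8 other tagged libraries and of no anterior one. The longest such stretch was 2L 12622436–12622896, 461 bp. Its signalValue was low throughout, at percentile 0.397 to 4.34 in anterior libraries, 5.93 to 29.6 in the other tagged ones and 3.85 to 12.0 in whole embryos.

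A stretch of 3R held 5 members between 12543050 and 12684417, a span of 141 kb. All 5 were called, each with a shorter covered length in anterior nuclei. The stretch was picked as a run of called members at most 200 kb apart, so its share of calls is no test. Of the other such runs, one on 2R had 4 of 18 members called. Another on 3R had 3 of 10, with 2 lower and 1 higher in anterior nuclei, and the rest had 2 of 2 each. In the fourth, 3R 12672734–12674904, peaks covered 1100 and 1096 bp in D1, 1087 and 1010 bp in D3 and 1132 and 1101 bp in D2, against 1690 and 1600 bp in D4, 1320 and 1235 bp in D5, 1704 and 1885 bp in D6 and 2158 and 2001 bp in D7. Anterior nuclei were lowest, D5 next and D7 highest, with no overlap in covered bp between anterior and other libraries. The anterior difference was −0.56 (SE 0.04, adjusted p = 0.000313) and the posterior one 0.74 (SE 0.05, adjusted p = 8.66e-05), both on the log2 scale. Whole embryos had 1326 to 1573 bp.

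The other 4 members of the stretch moved the same way. 3R 12679588–12684417 was covered over 1100 to 2074 bp in anterior libraries, 2737 to 4830 bp in the other tagged ones and 2484 to 3604 bp in whole embryos, a difference of −1.08 (SE 0.08, adjusted p = 0.000313). 3R 12634860–12637216 had 523 to 1147 bp, 1862 to 2357 bp and 1463 to 1869 bp in the same groups (difference −1.11, SE 0.14, adjusted p = 0.00303). 3R 12596260–12598354 had 550 to 969 bp, 1345 to 2095 bp and 1272 to 1631 bp (difference −0.996, SE 0.12, adjusted p = 0.00303). In 3R 12543050–12546965 the change was smallest, with 2599 to 3171 bp, 3182 to 3868 bp and 3059 to 3308 bp (difference −0.23, SE 0.04, adjusted p = 0.0194). In each of the 5, all 6 anterior libraries stood below the other 8 in covered bp. When only peaks with a −log10 q of at least 5 were kept, 3R 12679588–12684417 no longer passed, with a difference of −0.81 (adjusted p = 0.0533).

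**Figure D2:**
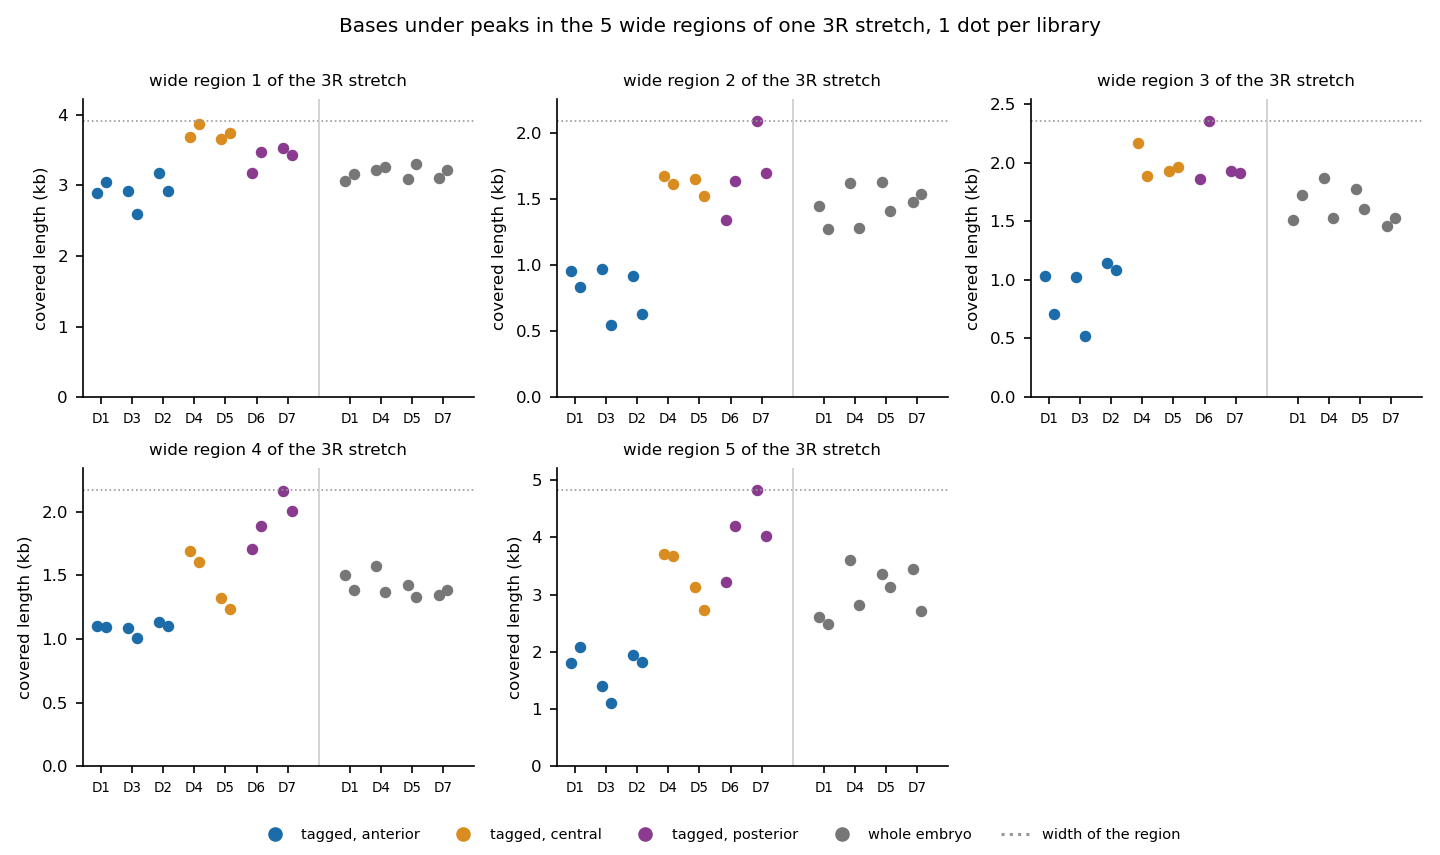
Covered length (kb) in the 5 wide regions between 12543050 and 12684417 on 3R, in order of position, 1 dot per library; tagged domains run from D1 to D7, whole embryos stand at the right, and the dotted line is the width of the region. The 6 anterior libraries lie below the other tagged ones in every panel, for example at 550 to 969 bp against 1345 to 2095 bp in the second.

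Other members were covered further in anterior nuclei. In 3R 9726978–9729078, anterior libraries covered 1991 to 2092 of 2101 bp, and the 8 other tagged libraries 723 to 972 bp. Whole embryos covered 1861 to 2003 bp, close to the anterior level. The difference was 1.30 (SE 0.10, adjusted p = 0.000411), and 523 bp lay under peaks of all anterior and no other tagged libraries. In 3R 20583883–20585944, anterior libraries had 1635 to 2023 bp; D4 had 654 and 627 bp, D5 811 and 681 bp, D6 1454 and 1257 bp, D7 858 and 1248 bp and whole embryos 1678 to 1984 bp. The central domains were lowest there, with a central difference of −1.28 (SE 0.10, adjusted p = 0.000949) beside an anterior one of 1.03 (SE 0.10, adjusted p = 0.000732).

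Adjacent members on X were covered furthest in D1. X 8530114–8533261 was covered over 3089 and 2807 bp in D1, 1531 and 1105 bp in D3, 751 and 772 bp in D2, 735 and 335 bp in D4, 297 and 349 bp in D5, 756 and 391 bp in D6 and 356 and 579 bp in D7. D1 was highest and D3 next, while D2 overlapped the domains behind it. Whole embryos had 870 to 1860 bp. The anterior difference was 1.74 (SE 0.22, adjusted p = 0.00331). X 8536415–8538451 had 1962 and 1993 bp in D1, 1087 and 1518 bp in D3, 916 and 1262 bp in D2, 276 to 680 bp in the other tagged libraries and 1144 to 1716 bp in whole embryos. Here all anterior libraries stood above the other tagged ones (difference 1.57, SE 0.16, adjusted p = 0.00118), and D3 and D2 overlapped. No contrast among the anterior domains was tested.

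The member with the largest spread, 3L 15229143–15233315, shared no base between all 22 lists. Anterior libraries covered 2869 to 4143 of its 4173 bp. D4 covered 3148 and 1218 bp, D5 337 and 223 bp, D6 279 and 214 bp, D7 709 and 1559 bp and whole embryos 1178 to 2866 bp. The anterior difference was 2.62 (SE 0.24, adjusted p = 0.000732), although D4 replicate 1 lay within the anterior range. In D5 and in D6 the short peak of one library stood at the opposite end of the region from that of its duplicate, so a similar covered length did not mean the same place. The region counted as found in every library through such peaks.

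Duplicates could also disagree in a wide region. In 2L 6973214–6985157, 11944 bp wide, peaks covered 11771 and 1949 bp in D1, 7440 and 11018 bp in D3, 11263 and 11509 bp in D2, 1555 and 2700 bp in D4, 9886 and 1628 bp in D5, 3099 and 940 bp in D6 and 1150 and 877 bp in D7. D2 and D3 were long in both libraries and D4, D6 and D7 short, but the duplicates of D1 and of D5 fell on both sides. The anterior difference of 2.09 had an SE of 0.52 and did not pass (adjusted p = 0.0651). Whole embryos spread from 1496 to 11211 bp.

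**Figure D3:**
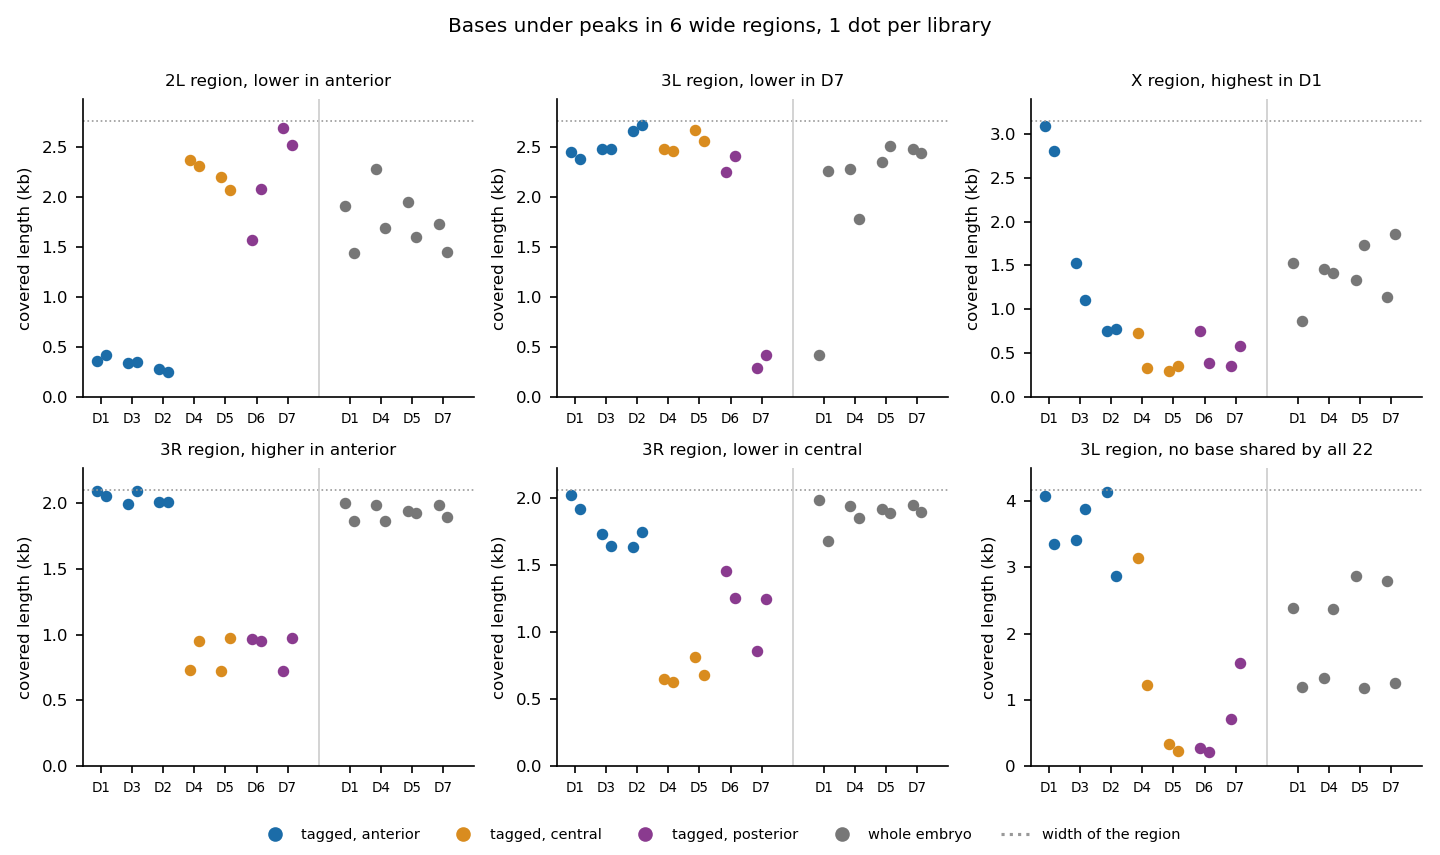
Covered length (kb) in 6 wide regions, 1 dot per library, with tagged domains from D1 to D7, whole embryos at the right and the width of the region as a dotted line. The 2L region has 254 to 425 bp in anterior libraries and at least 1572 bp in the other tagged ones, and the 3L region beside it is low in both D7 libraries, at 291 and 425 bp.

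**Figure D4:**
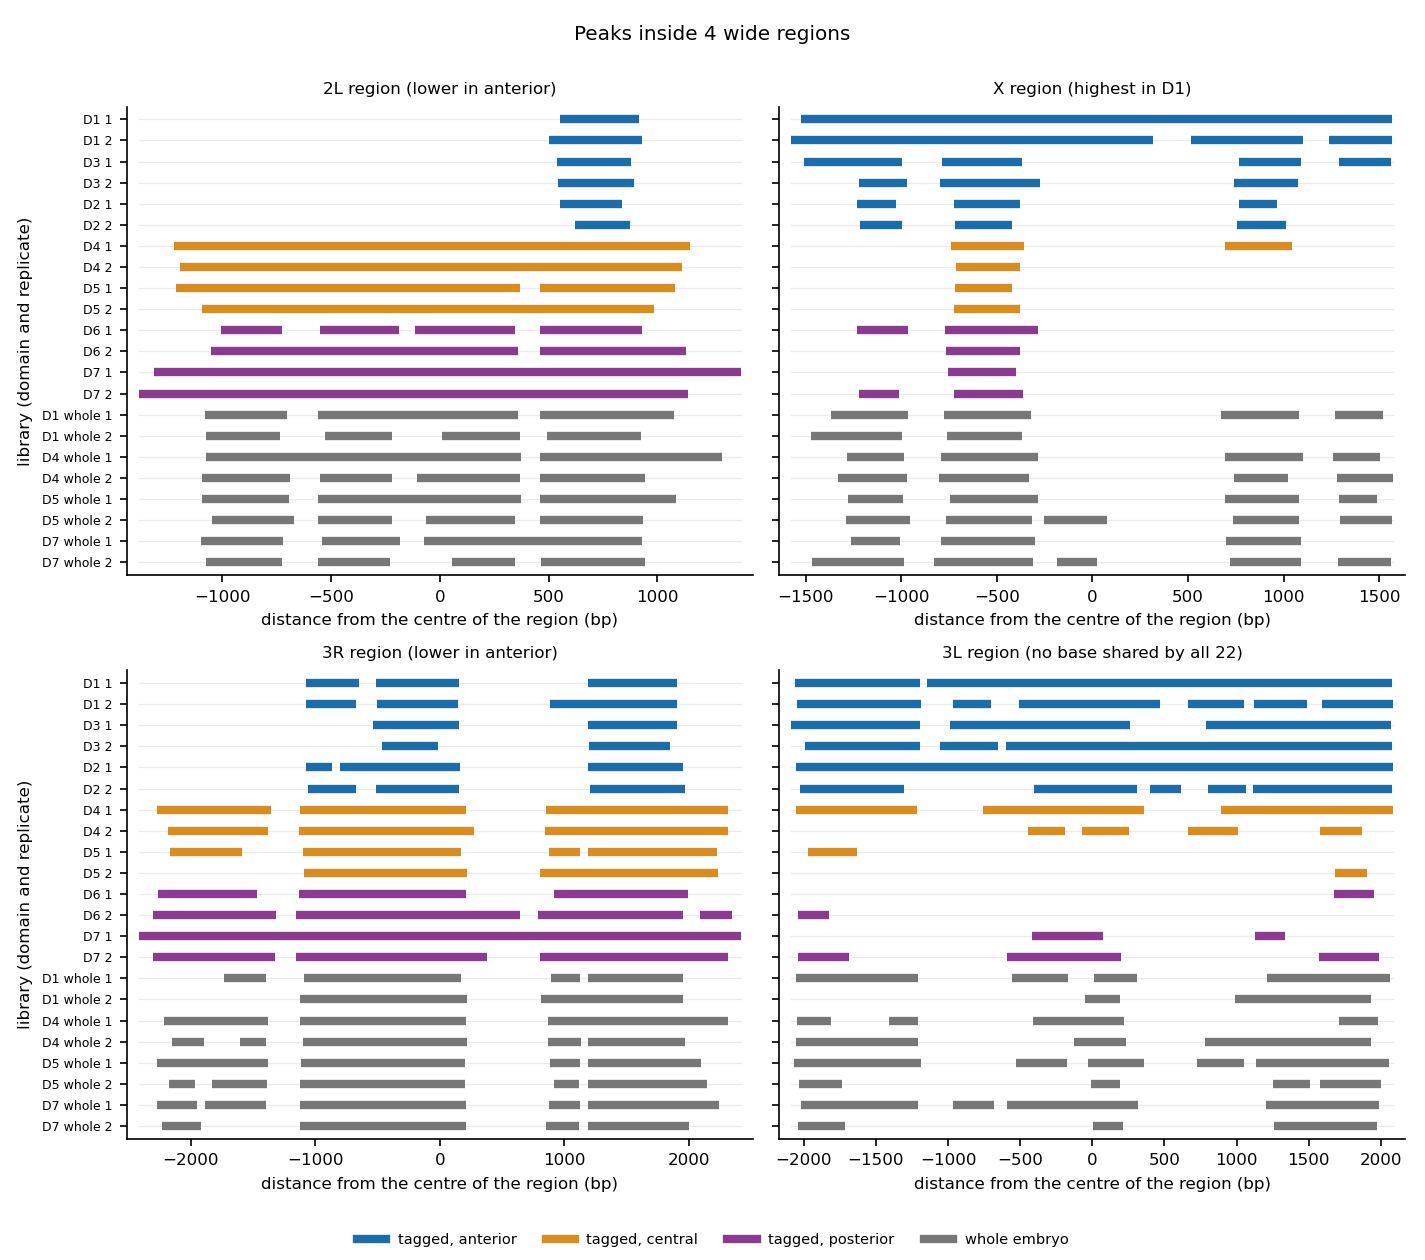
Peaks of each library, as bars, inside 4 wide regions; the x axis is distance from the centre of the region (bp) and each row is a library, tagged domains from D1 to D7 above whole embryos. The 2L region keeps 1 short peak in anterior rows, and the X region is filled in D1. The 3R region lacks its left peak in anterior rows, and also in D5 replicate 2 and in D1 whole-embryo replicate 2. In the 3L region the short peaks of D5 and D6 stand at opposite ends in the duplicates.

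Central nuclei differed in 13 members, 0.918%, beside 1.26% of all regions tested. Of these, 2 were higher, where 0.433% of all regions were called, and 11 lower, where 0.830% were. This split depended on centring: without it 39 were higher and 5 lower, and the median difference of all regions moved by 0.15 on the log2 scale to 0.11. Over all 10843 regions the median covered length was 700 to 746 bp in the 4 central libraries and 582 to 718 bp in the other tagged ones. The 13 members had the same sign within both naming styles that hold central libraries, which is no independent check, as these libraries also made the calls. Central libraries overlapped no other tagged library in 2 members that were higher, beside 0.194% of all regions tested, and in 18 that were lower, beside 1.58%; in either direction the share of all regions was 1.77%. The count was 3 with naming style as a term and 3 to 16 when 1 library was left out, lowest without D4 replicate 2. It was 8 or fewer without any 1 central library, replicate 2 of D1, D2, D3 or D7, or D6 replicate 1.

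Adjacent members on X, between 2321031 and 2326598, were both lower in central nuclei. X 2323743–2326598 had 2103 and 2079 bp in D4 and 1701 and 1834 bp in D5, against 1881 to 2549 bp in the other tagged libraries and 2220 to 2478 bp in whole embryos, so the groups overlapped. Its difference was −0.37 (SE 0.06, adjusted p = 0.0244), and it did not pass without centring, with style as a term or without any 1 of the 4 central libraries. The central call of 2L 12621168–12623934 was the largest, 1.52 (SE 0.08, adjusted p = 5.03e-05). There D7 (2697 and 2524 bp) stood above D4 (2371 and 2309 bp) and D5 (2200 and 2078 bp). Anterior libraries were far lower (254 to 425 bp). The other member called higher was 3L 17389138–17391898, with a central difference of 0.45. Its central libraries covered 2461 to 2669 bp, within the anterior range of 2374 to 2723 bp, and D7 covered 291 and 425 bp. Neither call set central nuclei above all other domains.

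Posterior nuclei differed in 9 members, 0.636%, beside 0.904% of all regions tested. Of these, 6 were higher, where 0.369% of all regions were called, and 3 lower, where 0.535% were. Without centring 3 were higher and 12 lower. Of the 9, 8 were also called in the anterior comparison, which shares these libraries. A posterior call thus need not set posterior nuclei apart from central ones. In 3R 12634860–12637216, called higher, posterior libraries covered 1862 to 2357 bp and central ones 1886 to 2171 bp. In 3L 15229143–15233315, called lower, they covered 214 to 1559 bp and 223 to 3148 bp. In 2 of the 9, posterior libraries overlapped no other tagged library in centred length. Posterior libraries stood wholly above the other tagged ones in 6 members, beside 0.729% of all regions tested, and wholly below in 0, beside 0.286%; in either direction the share of all regions was 1.01%. The count was 5 without D2 replicate 1, D4 replicate 2 or D6 replicate 2, and 15 without D3 replicate 1. All of the 9 had the same sign within the style that holds every domain, and 8 within the lists without letters. These libraries also made the calls, and D7 replicate 1 was the only posterior list without letters. The exception was 3R 5809479–5813567, where D7 replicate 1 covered 1933 bp, against 3704 bp in D4 and 2562 bp in D5 replicate 1. Its posterior call was lost with style as a term and without any 1 of 11 libraries. The smallest posterior change was in X 8298863–8301607, with 1627 and 1783 bp in D6 and 2063 and 2214 bp in D7, against 1886 to 2497 bp in the other tagged libraries. The groups overlapped there, and the difference of −0.20 (SE 0.04, adjusted p = 0.0391) did not pass on the percent scale, with style as a term or without any 1 library other than D1 replicate 2.

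In 3L 17389138–17391898 the posterior difference lay with D7 alone. D7 covered 291 and 425 bp, while D6 covered 2253 and 2412 bp and all other tagged libraries 2374 to 2723 bp. Whole embryos had 1779 to 2507 bp except D1 replicate 1 with 420 bp. Both D7 libraries were thus below every other tagged library, and so was 1 library of whole embryos. The domain test gave an adjusted p of 0.000127 and the posterior difference was −1.40 (SE 0.09, adjusted p = 8.66e-05). The lettered D7 list gave 1 summit there and the other tagged ones 5 to 7.

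In 2R 17416086–17418097 the order of domains did not follow the axis. It was covered over 1817 and 1637 bp in D1, 1181 and 1319 bp in D3, 1063 and 917 bp in D2, 1565 and 1563 bp in D4, 1106 and 1066 bp in D5, 1086 and 1123 bp in D6 and 1813 and 1810 bp in D7. D1, D4 and D7 were high in both libraries, and D2, D5 and D6 low. The domain test gave an adjusted p of 0.00515, which was 0.0852 on the percent scale, while no contrast of position passed.

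**Figure D5:**
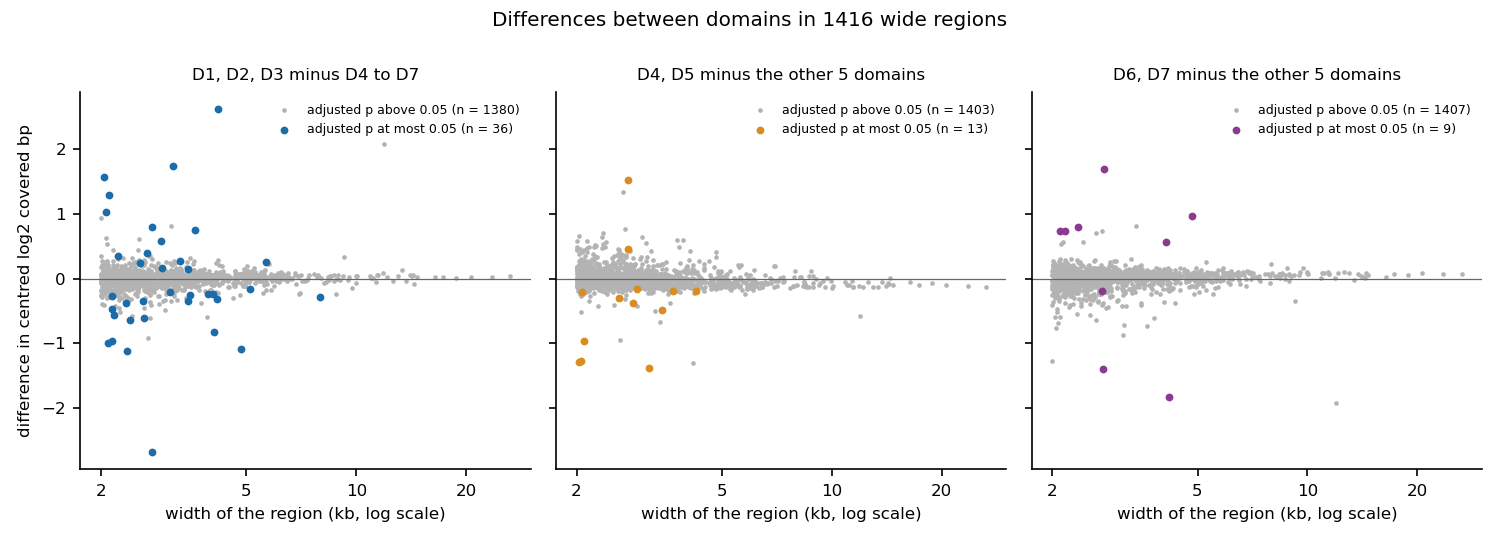
Difference in centred log2 covered length of 1416 wide regions against their width (kb, log axis), for anterior, central and posterior nuclei minus the other domains; each point is 1 region and coloured points have an adjusted p of at most 0.05. Called regions number 36, 13 and 9, and the wider regions lie nearer 0, apart from 2L 6973214–6985157 (11944 bp).

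The members called in at least 1 of these 4 comparisons numbered 47, or 3.32% of members, beside 4.57% of all regions tested. Of the 47, 33 were called in 1 comparison and 2 in all 4. The comparisons share libraries, so the calls are not independent. The 47 had a median width of 2767 bp and the other 1369 members one of 2780 bp. They included 4 of the 170 members of at least 5000 bp. By arm, they were 19 of 370 members on 3R, 9 of 317 on 2R, 9 of 244 on 3L, 5 of 235 on 2L and 5 of 241 on X. On chromosome 4 they were 0 of 9, too few members to compare. Their shared part was smaller, with a median of 42.8% of the region under peaks of all 22 lists against 63.2% in the other members; both come from the same peaks as the calls.

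Single bases told the same groups apart in few members. A base was counted as separated when it lay under peaks of all libraries of one group and of none of the other. A wide region offers more bases than a narrow one, so these shares of regions are not adjusted for width. Anterior nuclei gained 1215 such bp in 13 members, or 0.918% of them, beside 1.18% of narrower regions. They lost 2990 bp in 42 members, or 2.97%, beside 1.41%. Members hold 4.85 Mb in all. In the 8.32 Mb of narrower regions, anterior nuclei gained 3774 bp and lost 5366 bp. Central nuclei gained 1629 bp in 46 members, or 3.25%, beside 3.01% of narrower regions, and lost 53 bp in 2, or 0.141%, beside 0.138%. Posterior nuclei gained 97 bp in 4 members, or 0.282%, beside 0.159% of narrower regions, and lost 750 bp in 21, or 1.48%, beside 1.57%. Bases under peaks of both libraries of one domain and of neither of another made up 14.7% of member bases and 17.1% of those of narrower regions, and every member held some.

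Against whole embryos of the same constructs, tagged nuclei from D1, D4, D5 and D7 as 1 group differed in few members. One member, 3R 734584–737292, was called, beside 0.0369% of all regions tested, and 133 members had an unadjusted p below 0.05. Tagged libraries covered 1737 and 2297 bp of it in D1, 2030 and 1836 bp in D4, 2021 and 1448 bp in D5 and 1710 and 1781 bp in D7, against 1135 to 1376 bp in whole embryos. All 8 tagged libraries lay above all 8 whole-embryo ones. Such a gap in centred length, in either direction, was seen in 3 members, beside 0.129% of all regions tested. The libraries of D2, D3 and D6, which have no whole-embryo partner, had 1107 to 1678 bp. The difference was 0.52 on the log2 scale (SE 0.09, adjusted p = 0.0457), and with tagged and whole-embryo libraries paired by strain the adjusted p was 0.0569. That pairing instead called 3R 6342272–6344892, named after its value was seen, with a difference of 0.76 (adjusted p = 0.0431). The call in 3R 734584–737292 was also lost without any 1 of 11 of the 16 libraries, D4 and D7 tagged ones among them, and the difference was 0.20 when only peaks with a −log10 q of at least 5 were kept and 0.09 when regions were merged at 100 bp of overlap. The count was 0 to 7 when 1 library was left out, highest without D1 tagged replicate 1.

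The difference between tagged nuclei and whole embryos was not the same for the 4 constructs in 5 members (limma interaction of construct and kind of library, a test added after the data were seen), while 0.332% of all regions passed. In 2L 12621168–12623934 it was −2.12 for D1, 0.21 for D4, 0.23 for D5 and 0.75 for D7 on the log2 scale (adjusted p = 0.00373). In X 8536415–8538451 it was 0.43, −1.83, −1.64 and −1.67 in that order (adjusted p = 0.0188). D1 nuclei and the 3 other bands thus stood on opposite sides of whole embryos in both.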

How the data were processed

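Each of 22 ATAC-seq libraries had 1 peak list deposited by the authors as GFF3, written with rtracklayer 1.40.3 per the file headers, on build dm3; the genomic DNA sample was not analysed here. The submitters' processing notes name Bowtie2 2.2.9, SAMtools 1.3.1 and MACS2 2.1.1.2. Per the file headers and values, the deposited score of a peak was within 1 of 10 times its −log10 q, and the other columns hold positions, the authors' fold enrichment (signalValue) and the summit. Any shift of reads for Tn5 is not given in the sources used here, and neither is read depth.

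Peaks were merged and covered bases, separate peaks, summits and signal ranks were measured with Python 3.11.15, numpy 2.4.6 and pandas 2.3.3; figures used matplotlib 3.10.9. The log2 covered length was centred on the library's median over the 10843 regions found in all 22 lists and tested with limma 3.58.1 (R 4.3.3, moderated tests with a mean trend) on 14 tagged libraries, or on 8 tagged and 8 whole-embryo ones, with Benjamini-Hochberg adjustment over all 10843 regions and a threshold of 0.05. The fits were tested on simulated data. Lists had 3 naming styles. A summit letter was read as a number (a for 1, z for 26, ba for 27).

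Members, tests and groups were chosen with earlier results of these data known. Regions were named as those with up to 5 of the smallest adjusted p per comparison and direction, the 5 widest, the 3 most and 3 least even and those at the width limit; 3R 12543050–12546965, 3R 6342272–6344892 and the X member at 2321031 were named after their values were seen. Tagged and whole-embryo libraries with the same construct and number share a strain by their labels, and their deviations correlated at a mean of 0.281. The lists of patterning genes were not used here, as no annotation on dm3 was given, so no region is tied to a gene. P-values of the domain tests measure the spread between duplicates. These differ in strain, except in D3 by label, and also in naming style. In the main test of tagged nuclei against whole embryos, the spread also holds differences between constructs. Libraries that share a strain were treated there as independent.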

Additional observations from a re-analysis of the deposited data

Results flagged for a closer look

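The covered bases of 28 named members and the summaries of each library were examined in 145 groups of 4 to 10 libraries for a library far from the rest. In 11 groups, all of covered bases, 1 library stood apart. Chance alone gives about 1 in 20 in groups that were not picked by their values. Most of these members were picked from the same values, so the 11 cannot be set against that rate.

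In 3 of the 11, D7 replicate 1 or D6 replicate 1 or 2 stood apart upwards among the 4 posterior libraries: D7 replicate 1 covered 26386 bp of 3R 6408279–6434682 (nearest 25848 bp), D6 replicate 2 covered 2357 bp of 3R 12634860–12637216 (nearest 1931 bp) and D6 replicate 1 covered 3099 bp of 2L 6973214–6985157 (nearest 1150 bp). In 3R 9726978–9729078, D7 replicate 1 stood below them with 723 bp (nearest 950 bp). Among the 4 central libraries, D4 replicate 1 was highest in X 8530114–8533261 with 735 bp (nearest 349 bp) and in 2R 17046644–17050606 with 3835 bp (nearest 3760 bp), and D5 replicate 1 in 2L 6973214–6985157 with 9886 bp (nearest 2700 bp). Among the 6 anterior ones, D3 replicate 2 was lowest in 3R 12672734–12674904 with 1010 bp (nearest 1087 bp) and D1 replicate 1 highest in 3R 5809479–5813567 with 2327 bp (nearest 1749 bp). Among the 8 whole-embryo libraries, D1 replicate 1 had 420 bp of 3L 17389138–17391898 (nearest 1779 bp), close to the 291 and 425 bp of D7 nuclei, and D1 replicate 2 had 1678 bp of 3R 20583883–20585944 (nearest 1851 bp).

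The difference between tagged nuclei and whole embryos varied with the construct in 5 named members by the limma interaction test. The adjusted p was 0.00373 for 2L 12621168–12623934, 0.00545 for 3R 12672734–12674904, 0.0188 for X 8536415–8538451, 0.0191 for 3R 20583883–20585944 and 0.0490 for 3R 12634860–12637216. In 3R 20583883–20585944 the log2 difference was 0.07 for D1, −1.61 for D4, −1.39 for D5 and −0.87 for D7. In 3R 12634860–12637216 it was −0.96 for D1, 0.22 for D4, 0.17 for D5 and 0.39 for D7.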

How the results depend on the processing

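Named members were recomputed 695 times over 32 results; 584 values kept their call, 111 no longer passed and 0 changed sign. Counts of called members depended more on the settings. Without centring they were 32 between domains, 55 anterior, 44 central, 15 posterior and 2 for tagged against whole embryos. On the percent scale they were 56 central (4 higher, 52 lower) and 0 tagged against whole. With naming style as a term they were 8 between domains, 21 anterior, 3 central and 12 for signal rank, which was 133 with lettered lists only. With a −log10 q of at least 5 they were 10 between domains and 0 tagged against whole; that last count was also 0 with a constant prior variance, at 100 bp of overlap and with no filter on the regions tested, and without that filter 23 members differed in posterior nuclei. A width limit of 1500 bp gave 2500 members and 33, 77, 24, 20, 2 and 3 calls between domains, anterior, central, posterior, tagged against whole and by signal rank. A limit of 3000 bp gave 594 members and 6, 16, 4, 3, 0 and 0 calls in the same order.

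With 1 library left out, counts ran from 10 to 24 between domains, 21 to 46 anterior, 3 to 16 central, 5 to 15 posterior, 0 to 7 tagged against whole and 1 to 17 for signal rank. With the replicate number as a block, 8 central members were called and 17, 33, 8, 1 and 1 in the other comparisons (between domains, anterior, posterior, tagged against whole, signal rank); libraries that shared only a number deviated together at a mean correlation of 0.0687 (−0.155 to 0.494). The cause of these changes was not tested. A filter on −log10 q removes weak peaks, and depth, which limits how far weak edges and gaps are called, is unknown.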
